A study of Mus musculus with 2 samples.

Results

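The SOX factor genes are 8 members of the Sox family, Sox4, Sox5, Sox6, Sox9, Sox10, Sox11, Sox12 and Sox13, and their chromatin was followed by single-cell ATAC-seq (scATAC-Seq) in mammary gland organoids with and without induction of an shRNA against Trps1. Peaks were taken as theirs where they overlapped the gene body or lay within 50 kb of a transcription start site (TSS), in the mouse build mm10 (GRCm38) with the GENCODE M21 annotation. This gave 256 regions of 275294 merged regions in all, made of 215 of 223092 peaks in one library and 232 of 229685 in the other. Of the 256 regions, 190 held a peak of both libraries and could be compared. A further 25 held a peak of the doxycycline library alone and 41 a peak of the ethanol library alone. Over all merged regions, 174940 of 275294 held a peak of both. At the edge of the window, the outermost shared region taken in lay 49.2 kb from the Sox9 TSS (log2 ratio of doxycycline over ethanol -0.12) and the nearest one left out lay 50.4 kb from a Sox13 TSS (-0.76).

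The organoids came from C57BL/6J mice of the genotype shTRPS1.34 ki/+; CAG-rtTA3 tg/+. In these mice a cassette with turboGFP and the Trps1 shRNA sits in the Col1a1 locus behind a tetracycline response element, and rtTA3 is made from the ubiquitous CAG promoter, so that no cell type is targeted. They were kept in medium with Neuregulin, Noggin and R-spondin and received doxycycline at 0.1 µg/ml (DOX) or ethanol, its solvent (EtOH), for 7 days. Both groups carry both transgenes, and doxycycline and the shRNA cannot be told apart since only DOX received either. The methods give 12 to 20 weeks as the age of the mice used. Each group was 1 library, made from matched organoids with the cells of several mice mixed, so there is no replicate check, no test was possible and all 95% intervals below cover counting error only. A legend of the study names wild-type mice for this assay, against the labels, which were followed here. The assay reads chromatin and not RNA, so the depletion of Trps1 itself was not measured in these libraries.

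SOX factors bind DNA through an HMG box, a domain that sits in the minor groove and bends the helix, and they often act together with a partner factor. The 8 genes fall into 3 groups. Sox4, Sox11 and Sox12 form the SoxC group, activators known from progenitor cells of many embryonic tissues. Sox5, Sox6 and Sox13 form the SoxD group, which lack an activation domain of their own, pair through a coiled coil and support or oppose other SOX factors. Sox9 and Sox10 form the SoxE group. Sox9 is known for cartilage and for stem and progenitor cells of epithelia, and Sox10 for neural crest and glia. In the mammary gland Sox9 and Sox10 are both known from progenitor cells, Sox10 mainly from luminal progenitor and basal cells. TRPS1 is a repressor that binds GATA sites.

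The genes differ widely in size, which sets how many regions each could hold. Sox5 (chr6:143828425-144781977, 954 kb) and Sox6 (chr7:115470872-116038796, 568 kb) are long genes on the minus strand with 12 and 13 annotated start sites, and they held 57 and 31 shared regions. Sox13 (chr1:133382303-133424377, minus strand) spans 42.1 kb and held 24. The other 5 are compact. Sox4 (chr13:28948919-28953713), Sox11 (chr12:27334264-27342574), Sox12 (chr2:152393611-152398063) and Sox10 (chr15:79154908-79165240) lie on the minus strand and Sox9 (chr11:112782224-112787760) on the plus strand, and they held between 10 shared regions at Sox11 and 20 at Sox10. By place, 77 of the 190 shared regions were in introns of their gene, 66 were intergenic, 14 were at its promoters and 11 overlapped its exons, while 11 lay inside another gene and 11 at the promoter of another gene.

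The DOX library held 3071 nuclei with a median of 75195 counts in merged regions and the EtOH library held 3104 nuclei with a median of 66701, and 23 barcodes occurred in both. Nuclei of both libraries were clustered without the regions of any Sox gene, which gave 8 clusters. Clusters 3 and 6 were immune-like, with 5 of 6 immune markers (Ptprc, Tyrobp, Csf1r, Lyz2 and Spi1, all but the T cell gene Cd3e) more accessible than in the other nuclei. They held 1284 DOX nuclei (41.8%) and 282 EtOH nuclei (9.09%). The summed accessibility of the 6 immune markers over all nuclei was 244 CPM in DOX and 108 CPM in EtOH, and no marker was at 0. CPM are counts scaled to a total of 1000000 over the shared regions, within the library or within the named nuclei. Clusters 4 and 5 were hormone-sensing luminal-like, with all 8 markers of that list, such as Esr1, Prlr and Foxa1, more accessible, and held 228 DOX nuclei (7.42%) and 959 EtOH nuclei (30.9%). Clusters 1 and 2 were each made almost wholly of 1 library, 1692 EtOH and 57 DOX nuclei in cluster 1 and 1363 DOX and 12 EtOH nuclei in cluster 2. The marker lists of luminal progenitor and of Schwann or glial cells were nearly level in cluster 1 (median log2 difference from the other nuclei 0.50 and 0.46). The basal list led in cluster 2 with 0.39, below the 0.74 it reached in cluster 7, where the fibroblast list had 0.80. Clusters 1, 2, 7 and 8 are therefore called by number, a choice made for cluster 2 after its values were seen. Because the libraries differed this much in their cells, each comparison is given over all nuclei and over the nuclei outside the immune-like clusters.

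For 6 regions that carry the differences described below, the central 300 bases are printed from the plus strand of GRCm38, with capitals on each SOX word (ACAAAG or ACAATG, either strand) and each GATA word (AGATAA or TGATAA, either strand). They were chosen as the highest region of Sox6 and Sox9, the lowest of Sox10, Sox11 and Sox13, and the Sox5 region with most of its counts in immune-like nuclei.
Sox9, 12.3 kb upstream, chr11:112769773-112770072: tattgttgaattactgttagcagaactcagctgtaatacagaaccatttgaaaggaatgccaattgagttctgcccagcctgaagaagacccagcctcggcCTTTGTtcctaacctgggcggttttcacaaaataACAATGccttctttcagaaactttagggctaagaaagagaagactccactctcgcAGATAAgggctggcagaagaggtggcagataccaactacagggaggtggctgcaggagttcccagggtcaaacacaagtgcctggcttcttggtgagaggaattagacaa
Sox6, intron, chr7:115639670-115639969: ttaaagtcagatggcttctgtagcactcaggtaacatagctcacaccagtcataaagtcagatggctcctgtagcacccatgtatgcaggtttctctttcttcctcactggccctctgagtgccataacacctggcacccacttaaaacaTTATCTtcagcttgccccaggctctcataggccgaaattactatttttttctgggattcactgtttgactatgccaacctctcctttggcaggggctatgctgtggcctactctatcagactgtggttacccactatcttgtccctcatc
Sox5, intron, chr6:144693524-144693823: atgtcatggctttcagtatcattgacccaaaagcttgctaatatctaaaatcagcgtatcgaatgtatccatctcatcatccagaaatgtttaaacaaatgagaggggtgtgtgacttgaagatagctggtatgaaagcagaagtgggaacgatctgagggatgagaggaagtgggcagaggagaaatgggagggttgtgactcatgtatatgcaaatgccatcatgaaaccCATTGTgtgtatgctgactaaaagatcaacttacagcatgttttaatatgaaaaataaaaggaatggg
Sox13, 36.5 kb upstream, chr1:133460748-133461047: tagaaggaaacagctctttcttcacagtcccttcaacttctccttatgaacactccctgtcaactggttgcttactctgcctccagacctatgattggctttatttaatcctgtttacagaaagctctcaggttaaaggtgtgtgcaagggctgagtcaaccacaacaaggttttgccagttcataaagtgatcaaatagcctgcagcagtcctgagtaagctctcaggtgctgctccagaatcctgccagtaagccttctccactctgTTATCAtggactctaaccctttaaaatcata
Sox11, 37.5 kb upstream, chr12:27379950-27380249: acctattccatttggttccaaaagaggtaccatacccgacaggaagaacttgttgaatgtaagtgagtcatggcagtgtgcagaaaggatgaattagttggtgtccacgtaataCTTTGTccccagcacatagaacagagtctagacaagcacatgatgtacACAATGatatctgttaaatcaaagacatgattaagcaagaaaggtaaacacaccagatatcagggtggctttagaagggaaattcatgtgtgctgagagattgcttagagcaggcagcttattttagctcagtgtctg
Sox10, 20.1 kb upstream, chr15:79185216-79185515: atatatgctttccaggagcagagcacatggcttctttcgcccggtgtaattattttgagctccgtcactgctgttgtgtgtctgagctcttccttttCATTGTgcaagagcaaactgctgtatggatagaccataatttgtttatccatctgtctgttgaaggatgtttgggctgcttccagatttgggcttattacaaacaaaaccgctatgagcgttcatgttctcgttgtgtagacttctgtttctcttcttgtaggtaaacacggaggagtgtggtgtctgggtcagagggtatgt
The Sox9 window held 2 SOX words and 1 GATA word, the Sox11 window 2 SOX words, the Sox5 and Sox10 windows 1 SOX word each, and the Sox6 and Sox13 windows 1 GATA word each and no SOX word.

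The 8 promoters, taken as the shared regions within 1 kb of a TSS, differed first of all between cell clusters. Sox10 was the most unequal among the nuclei that were not immune-like. Its promoter region (chr15:79164072-79164933) had 20.4 CPM (19.3 to 21.7) in cluster 1 and 17.2 CPM in cluster 2, against 3.28 CPM (2.57 to 4.12) in cluster 4 and 2.14 CPM (1.56 to 2.88) in cluster 5. In clusters 1 and 2 together it was 6.91-fold (5.73 to 8.39) above the hormone-sensing luminal-like nuclei. That class depends on the clustering, since at a finer Leiden resolution of 1 it held 337 DOX and 1016 EtOH nuclei and its Sox10 level went from 2.73 to 4.31 CPM. Cluster 7 had 5.23 CPM (3.81 to 6.99), and the immune-like clusters 3 and 6 had 1.80 and 1.99 CPM. The order thus ran from clusters 1 and 2 through cluster 7 to the rest, where clusters 3, 5 and 6 had overlapping intervals.

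Sox9 was open in every cluster but the immune-like ones. Its promoter (chr11:112781698-112782618) had between 26.4 and 31.6 CPM in clusters 1, 2, 4, 5 and 7, and 3.01 and 2.71 CPM in clusters 3 and 6. It was 9.89-fold (8.33 to 11.7) higher in the other nuclei than in the immune-like ones. Clusters 1 and 2 exceeded the hormone-sensing luminal-like nuclei by 1.10-fold only (1.03 to 1.18). Sox9 therefore followed the line between immune-like and other nuclei, where Sox10 also parted the other nuclei among themselves.

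In the SoxC group, Sox4 and Sox12 were nearly flat and Sox11 was not. Sox12 had 42.5 to 54.0 CPM and Sox4 26.3 to 34.1 CPM in clusters 1 to 7, immune-like nuclei included. The immune-like nuclei differed from the others by 1.08-fold at the Sox4 promoter (1.01 to 1.14, others higher) and by 0.939-fold at Sox12 (0.898 to 0.982, others lower). Sox11 was the most restricted promoter of the 8. It had 14.8 CPM (13.2 to 16.6) in cluster 5, 6.69 CPM in cluster 4 and 6.91 CPM in cluster 7, then 5.27 CPM in cluster 2 and 3.20 CPM in cluster 1. Its order was the reverse of that of Sox10, with the hormone-sensing luminal-like nuclei 2.53-fold (2.22 to 2.90) above clusters 1 and 2. The immune-like nuclei had 21 Sox11 promoter counts in DOX (0.253 CPM) and 0 in EtOH, where the exact Poisson interval reaches 0.521 CPM, so a difference between the libraries was not detectable there.

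The SoxD promoters lay between these patterns. Sox6 had 28.8 CPM in cluster 1, 18.0 CPM in cluster 2 and 15.9 CPM in cluster 7, against 6.13 to 9.08 CPM in clusters 3 to 6. Sox5 had 20.1 CPM in cluster 1 and a like level in cluster 2 (interval 19.7 to 22.3), then 11.9 CPM in cluster 7, 8.85 and 8.43 CPM in clusters 4 and 5, and 4.70 and 3.79 CPM in clusters 3 and 6. Clusters 1 and 2 were 2.94-fold (2.63 to 3.30) above the hormone-sensing luminal-like nuclei at Sox6 and 2.37-fold (2.12 to 2.66) at Sox5. Sox13 did not share this step. It had 16.4 to 19.7 CPM in clusters 1, 2, 4, 5 and 7 and 8.48 and 5.41 CPM in clusters 3 and 6, and its ratio of clusters 1 and 2 to the hormone-sensing luminal-like nuclei was 1.07-fold with an interval of 0.982 to 1.16. In all, 6 of the 8 promoters were lower in immune-like nuclei than in the others beyond their intervals by a factor of more than 2, from 2.34-fold at Sox6 to 28.1-fold (16.0 to 61.8) at Sox11, the exceptions being Sox4 and Sox12.

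**Figure D1:**
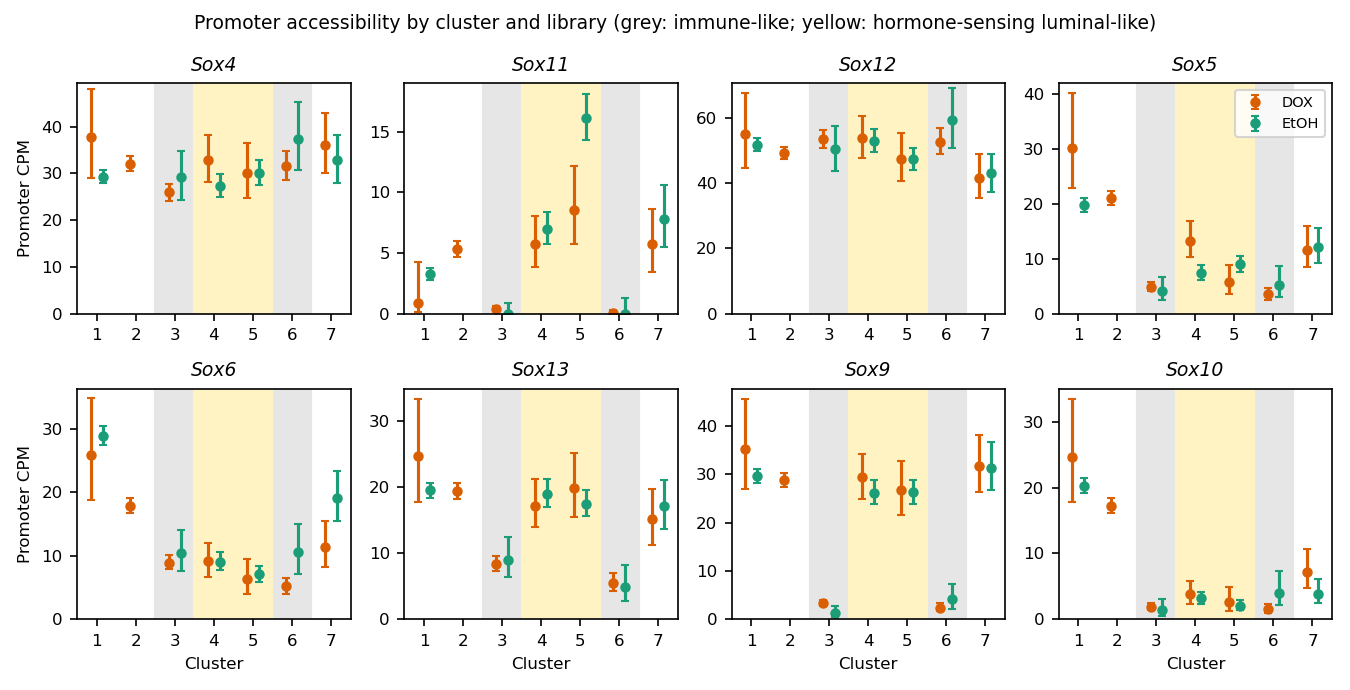
Promoter accessibility in CPM (vertical axes, from 0) of the 8 Sox genes in clusters 1 to 7 (horizontal axes) for DOX and EtOH, with exact Poisson 95% intervals; points with under 50 nuclei and cluster 8 are left out. Sox10 stands near 20 CPM only in clusters 1 and 2, Sox11 peaks in cluster 5, Sox9 drops in the immune-like clusters 3 and 6, and Sox4 and Sox12 are nearly level.

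Over all nuclei, 5 of the 8 promoters were lower in DOX beyond their counting intervals and none was higher, where over all protein-coding genes tested 24.3% of promoters were lower and 53.8% higher. The Sox11 promoter had 716 counts in DOX and 1225 in EtOH, or 3.37 and 6.10 CPM, a log2 ratio of -0.86 (-1.05 to -0.67). The Sox6 promoters had 13.0 and 20.0 CPM (-0.62, -0.72 to -0.52) and the Sox9 promoter had 18.9 and 26.7 CPM (-0.50, -0.58 to -0.42). The Sox10 promoter had 9.75 and 12.2 CPM (-0.32, -0.44 to -0.20) and the Sox13 promoters 14.6 and 18.1 CPM (-0.31, -0.41 to -0.21). Sox4 (30.5 and 29.5 CPM), Sox12 (50.9 and 51.0 CPM) and Sox5 (13.5 and 14.4 CPM) held 0 in their intervals, and Sox4 and Sox12 were higher where the median of all shared regions was set to 0. The 5 lower promoters all belong to the 6 that were less accessible in immune-like nuclei. The remaining gene of these 6, Sox5, was 3.83-fold higher outside the immune-like nuclei and was not called lower in DOX. The immune-like clusters supplied 39.1% of all counts in DOX and 7.05% in EtOH, and the part of that share in the promoter ratios was not tested.

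Outside the immune-like clusters 2 of the 8 promoters were lower, Sox11 (-0.29, -0.48 to -0.09) and Sox6 (-0.34, -0.45 to -0.23), while 3 were higher, Sox5 (0.36, 0.24 to 0.47), Sox10 (0.20, 0.08 to 0.32) and Sox4 (0.14, 0.06 to 0.23). Among all protein-coding genes 16.5% of promoters were lower and 24.9% higher in these nuclei. The ratio of Sox9 went to 0.03 (-0.06 to 0.11) and that of Sox13 to 0.02 (-0.09 to 0.12). The Sox10 promoter thus turned from lower to higher when the immune-like nuclei were left out. In clusters 1 and 2 pooled, where it was most accessible, it was lower in DOX (17.4 against 20.3 CPM, -0.22, -0.35 to -0.09). That pool sets mainly DOX nuclei of cluster 2 beside EtOH nuclei of cluster 1. Within cluster 1 the Sox10 ratio was 0.29 (-0.20 to 0.73). Within cluster 2 it was 0.18 (-1.05 to 1.80), on 10 EtOH counts. Within the immune-like nuclei alone the Sox9 promoter had 3.00 CPM in DOX and 2.40 CPM in EtOH and the Sox10 promoter 1.76 and 2.47 CPM, with intervals of the ratio that held 0 for both.

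The Sox6 and Sox5 ratios were not shared by all their start sites. At Sox6 the region chr7:115824426-115825278 had 1070 counts in DOX and 2306 in EtOH (log2 -1.19, and -0.58 outside the immune-like clusters), while the regions chr7:116031501-116032381 and chr7:116032849-116033558 had log2 ratios of -0.08 and -0.12. At Sox5 the region chr6:144781372-144782269 had 1025 counts in DOX and 781 in EtOH (0.31, and 0.50 outside). The Sox5 region chr6:144209268-144210059 had 1716 and 1789 counts (-0.14, and 0.44 outside), and chr6:143948099-143949047 had 121 and 314 counts (-1.46, and -0.97 outside). A single value for the gene therefore stands for start sites that went different ways.

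Within single clusters the libraries could be compared in the 6 clusters with at least 50 nuclei of each, which gave 48 promoter ratios. Of these 4 (8.33%) were higher in DOX and 4 (8.33%) lower beyond their intervals, beside 6.64% and 4.89% over all protein-coding genes. Sox11 in cluster 5 went from 16.1 CPM in EtOH to 8.54 CPM in DOX (log2 -0.92, -1.51 to -0.37), and in the hormone-sensing luminal-like nuclei as a whole from 11.6 to 6.85 CPM. Pooled over clusters 1 and 2 the Sox11 promoter was higher in DOX, with 5.14 against 3.28 CPM (0.65, 0.36 to 0.93). Sox6 (18.2 against 28.9 CPM, -0.67, -0.79 to -0.55) and Sox10 (-0.22) were lower in that pool. Nearly all its DOX nuclei belong to cluster 2 and nearly all its EtOH nuclei to cluster 1, so it mainly compares these clusters. Within cluster 1 alone the Sox11 ratio was -1.89 (-4.53 to 0.40), on 3 DOX counts, and the Sox6 ratio -0.16 (-0.62 to 0.28). In cluster 2 the Sox11 promoter had 2 EtOH counts. Sox5 was higher in cluster 1 (30.3 against 19.8 CPM, log2 0.62, 0.20 to 1.04) and in cluster 4 (13.3 against 7.44 CPM, log2 0.84, 0.40 to 1.27). Sox6 was lower in cluster 7 (11.4 against 19.1 CPM, log2 -0.74) and in the immune-like cluster 6 (5.18 against 10.5 CPM, log2 -1.02). The other 3 were Sox4 in cluster 4 (0.27), Sox9 in cluster 3 (1.47, from 3.28 and 1.19 CPM) and Sox10 in cluster 6 (-1.38, from 1.55 and 4.02 CPM). Within single clusters neither Sox9 nor Sox10 passed its interval where its promoter was well accessible, and cluster 1 held 57 DOX nuclei only, so that the Sox10 interval there ran from -0.20 to 0.73.

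**Figure D2:**
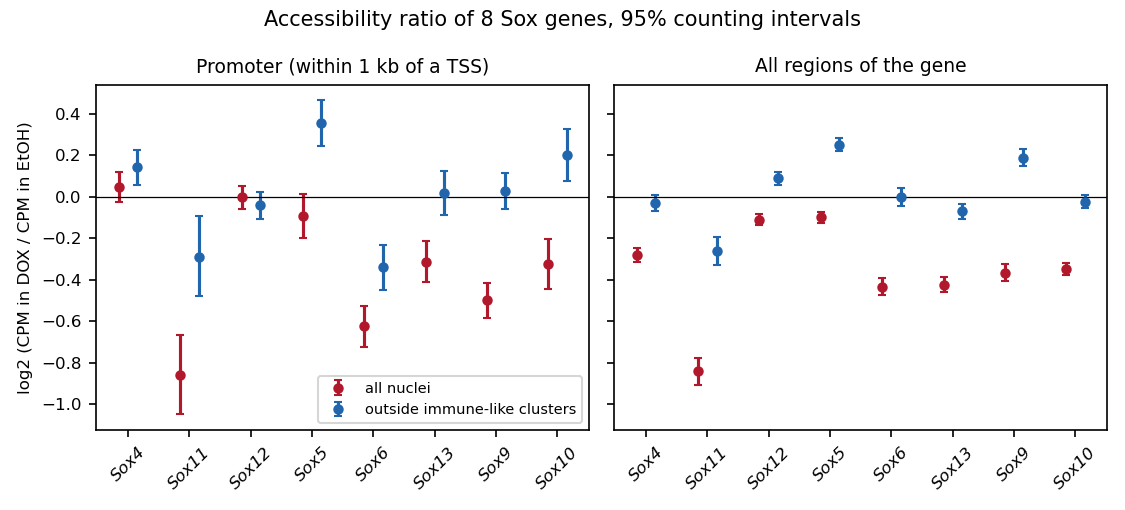
Log2 ratio of CPM in DOX over EtOH (vertical axis) for the promoters (left) and for all regions of each gene (right), with 95% counting intervals, over all nuclei and outside the immune-like clusters. Every gene sum lies below 0 over all nuclei (Sox12 and Sox5 above it where the median of all shared regions is set to 0), and outside those clusters Sox5, Sox9 and Sox12 lie above it.

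With all regions of a gene summed, all 8 genes were lower in DOX beyond their intervals, where 35.6% of all protein-coding genes were lower and 48.5% higher. With the median of all shared regions (-0.13) set to 0, 6 were lower, and no share over all genes was computed for that setting. The sums take in regions of neighbouring genes, such as Micall1 and Polr2f at Sox10, Nrsn2 at Sox12 and Etnk2 at Sox13. In immune-like nuclei the Sox10 sum had 88.9 CPM and its promoter 1.86 CPM. Sox11 had the lowest ratio (27.4 against 49.1 CPM, log2 -0.84, -0.91 to -0.78). Sox6 (-0.43), Sox13 (-0.42), Sox9 (-0.37), Sox10 (-0.35) and Sox4 (-0.28) followed, and Sox12 (-0.11) and Sox5 (-0.10) were closest to 0. With that median set to 0 these 2 turned to 0.02 and 0.03. Outside the immune-like clusters 2 gene sums were lower, Sox11 (-0.26, -0.33 to -0.20) and Sox13 (-0.07, -0.11 to -0.03), beside 35.0% of all genes. There 3 were higher, Sox5 (0.25, 0.22 to 0.28), Sox9 (0.19, 0.15 to 0.23) and Sox12 (0.09, 0.06 to 0.12), beside 29.8%. Sox4, Sox6 and Sox10 held 0 in their intervals. Sox11 was the one gene lower in promoter and sum both over all nuclei and over their subset outside the immune-like clusters. Immune-like nuclei gave 2.40% of its DOX counts, beside 39.1% of all DOX counts. The hormone-sensing luminal-like nuclei, where its promoter was highest, made up 7.42% of DOX and 30.9% of EtOH nuclei. The part of either share in the Sox11 ratios was not tested.

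Single regions moved further than promoters. All 190 regions reached the minimum of 100 counts, and a 2-fold difference was found upward in 12 of them (6.32%) and downward in 34 (17.9%), beside 13.0% and 13.4% over all shared regions. Outside the immune-like clusters 188 regions reached that minimum, and 9 (4.79%) were higher and 15 (7.98%) lower, beside 5.35% and 8.57%. The shares of the Sox regions were thus close to those of all regions once these nuclei were left out. The median log2 ratio of the regions was -0.43 over all nuclei (-0.13 over all shared regions) and -0.01 outside (-0.06). The 34 lower regions were lower in both sets of nuclei, 13 of them by at least 2-fold outside, and 10 of the 12 higher regions stayed higher. The median share of DOX counts that came from immune-like nuclei was 65.3% in the 12 higher regions and 7.76% in the 34 lower ones.

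**Figure D3:**
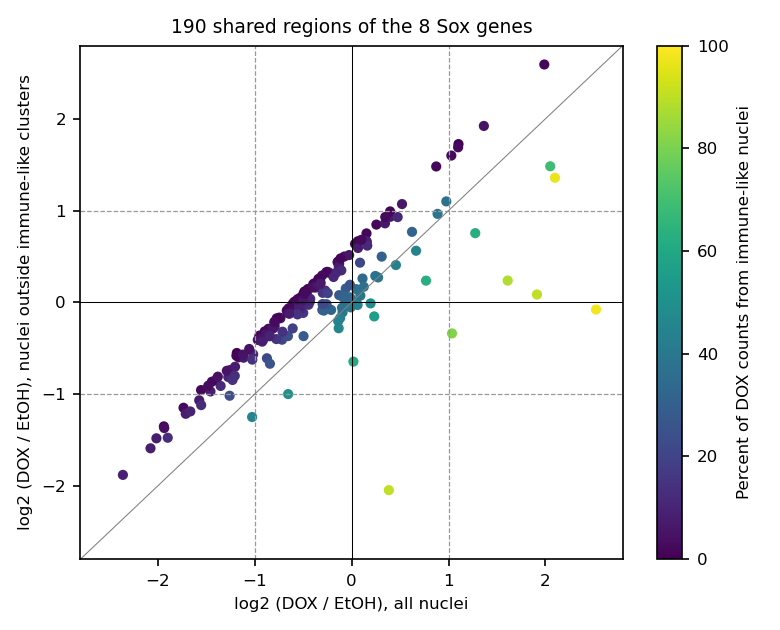
Each of the 190 shared Sox regions by its log2 ratio of DOX over EtOH in all nuclei (horizontal axis) and outside the immune-like clusters (vertical axis), with colour for the percentage of its DOX counts from immune-like nuclei and dashed lines at 2-fold. Most regions have a higher ratio outside these clusters, and the regions on the right that lie near 0 vertically have most of their DOX counts from immune-like nuclei.

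Of the 12 higher regions 9 belong to Sox5, and part of them were open in immune-like nuclei. The intronic region chr6:144693226-144694120, whose centre is printed above, had 1150 counts in DOX and 189 in EtOH (log2 2.52, 2.21 to 2.86), and 98.2% of the DOX counts came from immune-like nuclei. It had 14.3 CPM in cluster 3 and 11.1 CPM in cluster 6, against 0.072 to 0.315 CPM in clusters 1, 2, 4, 5 and 7. Without these nuclei its log2 ratio was -0.08 (-1.45 to 1.08). The intergenic region chr6:144817737-144818531, 36.2 kb upstream, had 1397 and 308 counts (2.10), with 96.6% from immune-like nuclei and up to 17.7 CPM in cluster 6. Outside them it was still higher in DOX (1.36, 0.30 to 2.37), on 48 and 27 counts. The intronic region chr6:144690441-144691204, had 298 and 68 counts (2.05) and 68.8% from immune-like nuclei, with a log2 ratio of 1.48 (0.73 to 2.24) outside them on 93 and 48 counts. Of 188 member regions with 200 counts or more, 6 were at least 4-fold apart. These 3 were higher, and the others, at Sox6, Sox9 and Sox13, were lower. Of all shared regions with at least 100 counts, 4.45% were 4-fold higher and 1.44% lower. While the Sox5 promoters were low in immune-like nuclei, the first 2 of the 3 Sox5 regions had 13.2 and 16.8 CPM there against 0.168 and 0.237 CPM in the other nuclei. The last of the 3 had 2.31 against 0.446 CPM.

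Further Sox5 regions were higher in DOX with few of their counts from immune-like nuclei. The intronic region chr6:144716121-144717048 had 619 counts in DOX and 227 in EtOH (log2 1.37, and 1.92 outside the immune-like clusters), with 4.85% of its DOX counts from immune-like nuclei. The intronic regions chr6:144359630-144360662 (348 and 153 counts, 1.10, and 1.73 outside) and chr6:143845493-143846417 (1581 and 732 counts, 1.03, and 1.60 outside) were alike in this. The lowest Sox5 region, chr6:143829779-143830682, overlaps an exon and had 170 and 614 counts (-1.94, and -1.37 outside). It was most open in cluster 1 (3.91 CPM) and had 1.32 CPM in cluster 2.

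At Sox6 the highest region was in an intron, chr7:115639323-115640316, with 601 counts in DOX and 143 in EtOH (log2 1.99, 1.60 to 2.37). Its ratio was larger outside the immune-like clusters (2.59, 2.22 to 3.00), and 1.83% of its DOX counts were immune-like. The region had 4.26 CPM in cluster 2, 3.77 CPM in cluster 7 and 3.10 CPM in cluster 4, against 0.396 CPM in cluster 1. The lowest, chr7:115685486-115686335, had 67 and 256 counts (-2.02, and -1.48 outside) and was most open in cluster 1, with 0.554 CPM in cluster 2. The same gene thus held an intronic region that was nearly absent from the EtOH cluster 1 and another that was highest there. At Sox13 the lowest region lay 36.5 kb upstream at chr1:133460415-133461380, with 188 counts in DOX and 913 in EtOH (-2.36, -2.70 to -2.04, and -1.88 outside), the lowest ratio of the 190 regions. It was open mainly in the hormone-sensing luminal-like clusters, with 7.66 and 10.6 CPM in clusters 4 and 5, and those held fewer nuclei in DOX. The highest Sox13 region, chr1:133347608-133348530, had 1176 and 295 counts (1.91) with 90.3% of the DOX counts from immune-like nuclei, and a log2 ratio of 0.09 (-0.44 to 0.59) outside them.

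In the SoxE group the highest Sox9 region lay 12.3 kb upstream of the TSS, at chr11:112769474-112770371, with 977 counts in DOX and 431 in EtOH (log2 1.10, 0.86 to 1.33). Outside the immune-like clusters the ratio was 1.69 (1.45 to 1.93), while the Sox9 promoter stood at 0.03. It had 8.51 CPM in cluster 2, 5.11 CPM in cluster 7 and 3.43 CPM in cluster 1, and under 1 CPM in clusters 3 to 6. The lowest Sox9 region, 42.3 kb upstream at chr11:112739410-112740347, had 72 and 287 counts (-2.08, and -1.59 outside). At Sox10 no region was 2-fold higher. Its highest, chr15:79208842-79209746, had 4278 and 2944 counts (0.46, and 0.41 outside), lies 44.1 kb upstream at the start of the noncoding gene Gm10863 and was accessible in immune-like nuclei too (21.6 and 23.0 CPM in clusters 3 and 6). The lowest Sox10 region, 20.1 kb upstream at chr15:79184908-79185822, had 400 and 1199 counts (-1.67, and -1.19 outside). Its levels of 8.63 and 12.3 CPM in clusters 4 and 5, against 4.15 CPM in cluster 1 and 1.84 CPM in cluster 2, ran against those of the Sox10 promoter.

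In the SoxC group the lowest regions were most open in clusters 4 and 5. The Sox11 region 37.5 kb upstream, chr12:27379641-27380557, had 244 counts in DOX and 884 in EtOH (log2 -1.94, and -1.35 outside the immune-like clusters), with 9.50 and 14.2 CPM in clusters 4 and 5 and under 1 CPM in every other cluster. The lowest Sox4 region, chr13:28905809-28906912, had 147 and 518 counts (-1.90, and -1.48 outside), with 5.12 and 5.53 CPM in clusters 4 and 5. The lowest Sox12 region, chr2:152377909-152378786, had 146 and 227 counts (-0.72) with 1.98 and 2.83 CPM there, its highest levels. These differences moved with the share of hormone-sensing luminal-like nuclei, 7.42% in DOX and 30.9% in EtOH, and the part of that share in them was not tested. The highest regions of this group were chr12:27310440-27311307 at Sox11 (523 and 414 counts, 0.26, and 0.85 outside, with 13.0 CPM in cluster 7), chr13:28931345-28932295 at Sox4 (2401 and 1877 counts, 0.27) and chr2:152388790-152389773 at Sox12 (175 and 84 counts, 0.98).

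**Figure D4:**
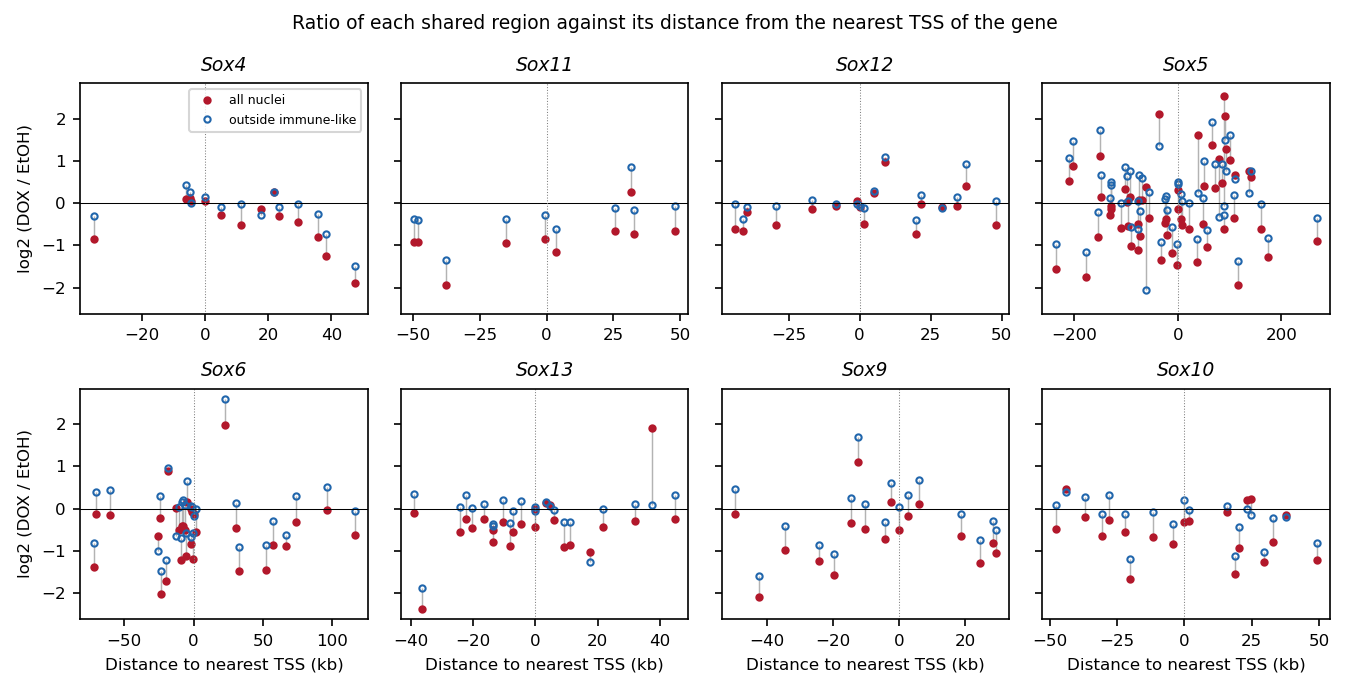
Log2 ratio of DOX over EtOH (vertical axes) of each shared region against its distance from the nearest TSS of the gene in kb (horizontal axes, positive downstream), over all nuclei and outside the immune-like clusters, with a line joining the 2 values of a region. The higher regions gather at Sox5, the Sox9 region 12.3 kb upstream and the Sox6 intron stand apart, and Sox12 has no region past 2-fold over all nuclei and 1 outside the immune-like clusters (1.10).

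The share of nuclei with at least 1 fragment at a promoter was compared after each nucleus had been thinned to 10000 fragments, which left out 336 DOX and 334 EtOH nuclei below that depth. Of the 8 genes 4 had a lower share in DOX and none a higher one, with binomial intervals that did not overlap, where 14.0% of the promoters of protein-coding genes were lower and 26.5% higher by this rule. Sox9 was open in 15.9% (14.6 to 17.3) of 2735 DOX nuclei and 22.5% (20.9 to 24.1) of 2770 EtOH nuclei. Sox6 was open in 12.4% and 17.9%, Sox13 in 13.1% and 16.5%, and Sox11 in 2.56% and 5.67%. Sox10 (9.07% and 11.0%), Sox5 (12.1% and 13.6%), Sox4 (24.4% and 26.0%) and Sox12 (39.0% and 39.6%) had overlapping intervals. Without thinning the shares were higher, for example 37.2% and 52.1% for Sox9 and 23.5% and 26.6% for Sox10. Outside the immune-like clusters no gene had a lower share (3.95% of all promoters did) and Sox5 alone had a higher one, with 18.7% (16.7 to 20.7) in DOX and 14.5% (13.1 to 15.9) in EtOH (5.80% of all promoters did). There Sox9 was open in 25.8% and 24.7%, and Sox10 in 14.7% (13.0 to 16.6) in DOX against an EtOH interval of 10.7 to 13.3, which overlapped.

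The same shares by cluster gave the background of each promoter. Sox10 was open in 18.4% (16.5 to 20.4) of 1541 nuclei of cluster 1 and 17.4% of 1202 nuclei of cluster 2. In clusters 3 to 6 it was open in 1.82% to 2.58%, and the immune-like clusters among these are taken as the level of a promoter that is closed. Sox9 was open in 22.5% to 26.0% of the nuclei of clusters 1, 2, 4, 5 and 7, and in 3.54% and 1.29% of those of clusters 3 and 6. Sox11 was open in 13.9% (11.1 to 17.1) of cluster 5 and 7.38% of cluster 4, against 0.303% of cluster 3. Before thinning, the median counts per immune-like nucleus were 68588.0 in DOX and 51948.0 in EtOH. In immune-like DOX nuclei a median of 1 of the 8 promoters was open, and none was in 37.8%, while among the other nuclei none was open in 16.4% in either library.

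**Figure D5:**
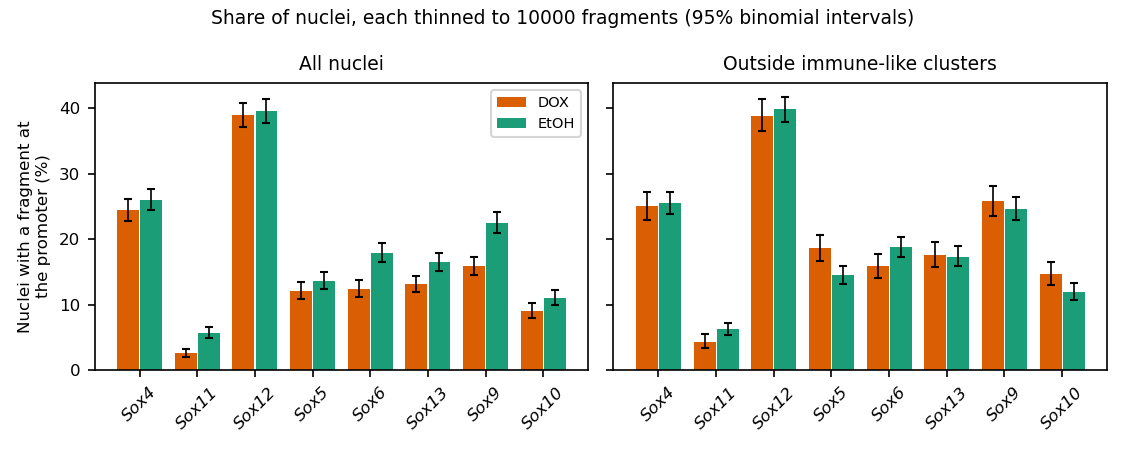
Percentage of nuclei, each thinned to 10000 fragments, with at least 1 fragment at the promoter (vertical axis, from 0) for each gene in DOX and EtOH, over all nuclei (left) and outside the immune-like clusters (right), with Clopper-Pearson 95% intervals. The lower DOX bars of Sox9, Sox6, Sox13 and Sox11 on the left overlap with EtOH on the right, where Sox5 is higher in DOX.

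The SOX words were found in the central 300 bases of 87 of the 190 regions (45.8%), beside 39.4% of all 174940 shared regions. They were in 21 of the 34 regions that were 2-fold lower (61.8%) and in 6 of the 12 that were higher. The same shares among all 2-fold lower or higher shared regions were not computed, so these counts have no like reference. Regions with a SOX word had a median log2 ratio of -0.49 and those without of -0.34, which became -0.06 and 0.01 without the immune-like nuclei. GATA words were in 22.1% of the Sox regions and 21.1% of all regions, and the ETS word AGGAAG in 40.5% and 42.1%. The median log2 ratio of regions with a GATA word was -0.13 and of those without -0.47 (0.12 and -0.02 outside). A word match is a description of the sequence and does not show that a factor was bound.

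By gene sums over all nuclei the rest of the family and the known targets were more mixed than the 8 genes. Outside the immune-like clusters the 8 genes went both ways as well. Of 11 other Sox genes 4 had higher sums in DOX and 5 lower ones, with a median log2 ratio of 0.03. Outside the immune-like clusters 5 were higher and 2 lower (median 0.03). At the promoters of the 10 of these genes with a shared region, 3 were higher and 5 lower (median -0.17). Outside those clusters 4 of these promoters were higher and 2 lower (median 0.08). The sums take in neighbouring chromatin, as at Sox15, with 436 CPM in DOX against 11.1 CPM at its promoter. Over all protein-coding genes 48.5% of sums were higher and 35.6% lower, and outside these clusters 29.8% and 35.0%. Among the higher sums were Sox7 (21013 counts in DOX and 15452 in EtOH, log2 0.36, and 0.34 outside the immune-like clusters) and Sox18 (0.27, and 0.02 outside). Among the lower were Sox17 (771 and 1364 counts, -0.91, and -0.46 outside) and the SoxE gene Sox8 (-0.29, and -0.10 outside). Of 15 genes known from other tissues as direct SOX targets 8 sums were higher and 6 lower (median 0.09), against 3 higher and 6 lower outside the immune-like clusters (median -0.03). At the 13 target promoters with a region, 4 were higher and 6 lower (median -0.31), against 2 higher and 1 lower outside (median -0.02). Over all protein-coding genes 53.8% of promoters were higher and 24.3% lower, and outside 24.9% and 16.5%. The lowest target promoter was that of the cartilage collagen Col9a1 (9.61 against 19.6 CPM, -1.03, and -0.44 outside), and the highest was that of the tubulin gene Tubb3, a SOX4 and SOX11 target (0.49, and 0.60 outside). Erbb3, a SOX10 target in neural crest cells, had 20.9 and 27.7 CPM at its promoter (-0.41, and -0.08 outside).

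Over 13 units of cluster and library with at least 50 nuclei, the accessibility of the gene body and 2 kb upstream was set beside that of all protein-coding genes, as log2(CPM + 1). The most alike in pattern, by Pearson's r, were Plce1 (0.995), Tpd52l1 and Nhs for Sox9, and Tbx15 (0.969), Hey1 and Ubash3a for Sox10. For Sox5 they were Pdcl2 (0.988), Abca12 and Oxtr, for Sox6 Atp8a2 (0.993), Kank1 and Myo10, and for Sox13 Etnk2 (0.988), Ppp4r4 and Sh2d4b. For Sox11 they were Gm11011 (0.981), Esrrb and Pax7, for Sox12 Apobec3 (0.916), Fbxw4 and Snapc4, and for Sox4 Pcdhgb2 (0.782), Pcdhgb4 and Pcdhga4. Etnk2 is a neighbour of Sox13, and regions at its promoter were counted among the Sox13 regions above. The units share 2 libraries and their depth, so these values describe the pattern only. Among the members themselves Sox6 and Sox13 were most alike (0.97), followed by Sox6 and Sox9 (0.93), while Sox10 and Sox11 (0.05) and Sox4 and Sox11 (0.02) were least.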

How the data were processed

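For each library the authors deposited raw counts, whole-number transposition events per peak and nucleus, with peak and barcode lists. Per the file headers they came from Cell Ranger ATAC 2.0.0, while the additional methods name an earlier version, and peaks were called in each library alone. The submitters' processing notes name mm10, and 0 peaks ended beyond a GRCm38 chromosome. Groups were taken from the treatment labels, and all deposited nuclei were kept without a doublet caller.

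Peaks of both libraries that overlapped by at least 1 bp were merged, and regions with a peak of both were called shared. Shared regions held 94.7% of DOX and 94.8% of EtOH counts. Counts were summed over nuclei and scaled to CPM of shared regions. Peaks of 1 library were not counted in the other and were kept out of ratios. Both ends of a fragment are counted, so exact conditional binomial intervals (ratios) and exact Poisson intervals (CPM) were computed on counts divided by 2. Shares carry Clopper-Pearson intervals, after thinning of fragments, taken as counts divided by 2 and rounded up. Calls needed a 2-fold ratio and 100 counts. A promoter or sum was called where its interval left out 0, and a share where both intervals did not overlap. All calls were set beside the same call over all shared regions or protein-coding genes. The named regions are the highest and lowest of each gene, all at least 4-fold apart (200 counts or more), and the single-library peaks with most counts. The start sites of Sox5 and Sox6, the further Sox5 regions and the pooling of clusters 1 and 2 were chosen after their values were seen.

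Clustering used 174646 shared regions without the 294 of Sox genes (TF-IDF, singular value decomposition, components 2 to 30, 15 neighbours, Leiden resolution 0.5). A cluster was named where 1 marker list had a median above 0, led by at least 0.1, had at least 3 detected markers and was not outnumbered by another list among the 10 leading genes. Shallow clusters such as cluster 8 also needed a marker of the list among those 10. The members, lists and alternatives were chosen with earlier results of these data known. Region ratios and thinning were tested on simulated data. Python 3.11.15, numpy 2.4.6, scipy 1.17.1, pandas 2.3.3, scikit-learn 1.9.0, igraph 0.11.9, leidenalg 0.10.2, pysam 0.24.0 and matplotlib 3.10.9 were used.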

Additional observations from a re-analysis of the deposited data

Results flagged for a closer look

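The Sox4 promoter went opposite ways in different nuclei. DOX over EtOH gave a log2 ratio of -0.233 (-0.44 to -0.02) in the immune-like nuclei and 0.143 (0.06 to 0.23) in the others, and the difference between them was not tested with 1 library per group.

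Peaks called in 1 library alone have no count in the other library and entered no comparison above. There were 25 in DOX, with 47 to 415 counts, and 41 in EtOH, with 33 to 1794 counts. Shared regions made up 190 of the 256 Sox regions, beside 174940 of all 275294 merged regions. Counts above 3 in such a peak show signal in that library and do not give a ratio. The peak with most counts was at Sox10, in EtOH, at chr15:79152511-79153336, with 1794 counts (8.94 CPM), 11.6 kb downstream of the nearest TSS. The DOX peak of Sox10 with most counts had 129. At Sox11 both libraries had a peak of their own beside the shared promoter region, chr12:27341693-27342318 in EtOH with 494 counts and chr12:27341153-27341589 in DOX with 118 counts, so the promoter value of Sox11 leaves part of its open chromatin out. The other EtOH peaks with most counts had 464 counts at Sox12, 448 at Sox6, 442 at Sox5, 346 at Sox9, 151 at Sox4 and 33 at Sox13. The other DOX peaks with most counts had 415 counts at Sox6, 387 at Sox5, 356 at Sox4, 190 at Sox13 and 128 at Sox9.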

How the results depend on the processing

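No paired analysis was possible because DOX and EtOH were 1 library each. Leaving out the immune-like clusters moved most results. It took lower regions from 34 to 15, lower gene sums from 8 to 2 and higher ones from 0 to 3, lower promoters from 5 to 2 and higher ones from 0 to 3, and genes with a lower share of open nuclei from 4 to 0 and a higher one from 0 to 1. It turned the log2 ratio of the sums of Sox12 (0.088), Sox5 (0.251) and Sox9 (0.188) and of the promoters of Sox5 (0.355), Sox13 (0.016), Sox9 (0.029) and Sox10 (0.202) above 0. Setting the median of all shared regions to 0 gave 1 higher sum and 2 higher promoters and turned the sums of Sox12 (0.016) and Sox5 (0.028) and the promoters of Sox12 (0.124) and Sox5 (0.033). A window of 10 kb left 19 lower regions of 117 and turned the Sox4 sum (0.045). A minimum of 500 counts left 20 lower regions of 142. With any region of the gene in place of the promoter, 8 genes had a lower share of open nuclei. No share over all protein-coding genes was computed for that setting. Weighting nuclei equally, leaving out the 5% of highest depth, promoters within 250 bp, thinning to 5000 fragments or not at all, reciprocal overlap, no count minimum and Leiden resolution 1 kept the counts they were applied to within 1.5 times. At resolution 1 the Sox10 promoter in hormone-sensing luminal-like nuclei nevertheless went from 2.73 to 4.31 CPM, and its log2 ratio of DOX to EtOH there from 0.34 (-0.32 to 0.96) to 1.28 (0.88 to 1.67). At that resolution the class took in a cluster of 240 DOX and 4 EtOH nuclei, named by a lead of 0.12. The part of that cluster in the change was not tested. Of the 80 values of single genes under alternatives, 14 had the other sign, 9 of them for a gene that was past its interval before, and the cause was not tested. With 1 library per group, culture and library preparation cannot be told apart from the treatment.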
